A study of Mus musculus with 14 samples.

Results

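The autosomal Gata genes Gata2, Gata3, Gata4, Gata5 and Gata6 were examined for Polycomb chromatin in mouse glioma model cells. They were chosen by name as the members of the family that lie on autosomes, and they made up 5 of the 21631 protein-coding genes of the autosomes and the X chromosome. The GATA proteins are zinc finger transcription factors that bind DNA at the letters GATA. Gata2 is needed in blood stem cells, Gata3 directs T cell development, and Gata4, Gata5 and Gata6 act in heart and endoderm. In neural cells such lineage genes are commonly held silent by Polycomb: the complex PRC2, with its subunit Suz12 and its enzyme Ezh2, trimethylates lysine 27 of histone H3 (H3K27me3), and the complex PRC1, with its ubiquitin ligase Ring1b, acts beside it.

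The cells were named PDGF neural stem cells in the labels and mouse DIPG cells, after the childhood brainstem tumour diffuse intrinsic pontine glioma, in the design text. They carried histone H3.3 either with the K27M substitution (K27M), in which methionine replaces lysine 27, or as wild type (H3WT). Chromatin immunoprecipitation with sequencing of H3K27me3 gave 2 libraries in each of 4 groups: K27M EPZ and H3WT EPZ, treated for 12 days with 3 µM of the Ezh2 inhibitor EPZ6438, and K27M DMSO and H3WT DMSO, treated with the solvent. For Suz12 and Ring1b there was 1 library of each genotype, from DMSO-treated cells. The sources used here do not give the promoter that drives the histone, the number of clones or whether replicates came from separate cultures. Each p-value therefore reflects how these libraries vary, possibly for technical reasons alone.

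Each library was a list of called peaks with no peak heights, and its read depth is unknown. The lists differed widely in size. The K27M EPZ lists held 201 and 340 peaks over 1.103 and 2.09 Mb, and the H3WT EPZ lists held 278 and 271 peaks over 2.36 and 1.98 Mb. The K27M DMSO lists spanned 13.5 and 65.5 Mb, and the H3WT DMSO lists spanned 43.6 and 217 Mb. On the autosomes alone they spanned 13.0 and 41.6 Mb in K27M DMSO and 39.2 and 149.9 Mb in H3WT DMSO. Shares of list length below use the totals with the X chromosome. The part of list size, and with it of depth, in any value below was not tested. As a check of the cell type, none of the 8 H3K27me3 lists had a peak at Sox2, Sox9, Olig2, Vim or Fabp7, genes of neural stem and glial progenitor cells. Of 9 such genes, 0 had peaks in both K27M EPZ, both H3WT EPZ or both K27M DMSO libraries, and 1 had them in both H3WT DMSO libraries. Of 9 blood, heart and endoderm marker genes the counts were the same. Over all protein-coding genes the shares were 0.740% in both K27M EPZ, 0.985% in both H3WT EPZ, 7.06% in both K27M DMSO and 21.4% in both H3WT DMSO libraries. With 9 genes in each set the counts are near these shares, so they cannot tell the cell type.

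The gene spans, in the mouse assembly GRCm38.p6, whose chromosomes are those of the files' build mm10, were as follows. Gata2 lay at chr6:88193891-88207032, Gata3 at chr2:9857078-9887953, Gata4 at chr14:63198914-63271712 and Gata5 at chr2:180325088-180335503, and that of Gata6 is given with its values. The RefSeq promoter table, which holds the 250 bases before and 50 bases after a listed transcription start, matched 3 of the 5 genes, with 2 starts for Gata2 and none for Gata4 or Gata6. These promoters are shown because PRC2 is known to gather at stretches rich in CpG dinucleotides, and because their DNA was under H3K27me3 peaks in DMSO. Each is printed from RefSeq, GRCm38.p6, 5′ to 3′ on the gene's strand, with CG letters in capitals. The promoter of Gata1, the X-linked blood gene of the family and not one of the 5 genes, follows for contrast.
Gata2 first start, chr6:88193641-88193940, + strand: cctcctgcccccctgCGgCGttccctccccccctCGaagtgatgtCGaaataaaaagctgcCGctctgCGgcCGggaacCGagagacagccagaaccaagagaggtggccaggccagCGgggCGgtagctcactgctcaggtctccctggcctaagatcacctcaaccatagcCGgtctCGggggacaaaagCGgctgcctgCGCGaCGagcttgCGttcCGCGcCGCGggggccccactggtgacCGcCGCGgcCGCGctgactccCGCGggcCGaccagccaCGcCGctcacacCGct
Gata2 second start, chr6:88198414-88198713, + strand: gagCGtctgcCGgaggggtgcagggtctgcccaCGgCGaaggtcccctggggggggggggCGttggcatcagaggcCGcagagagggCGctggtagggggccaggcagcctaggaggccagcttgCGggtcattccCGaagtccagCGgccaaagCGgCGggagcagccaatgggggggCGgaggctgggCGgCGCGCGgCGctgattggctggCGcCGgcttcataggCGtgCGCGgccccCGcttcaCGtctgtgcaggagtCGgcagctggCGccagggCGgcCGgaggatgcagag
Gata3, chr2:9878551-9878850, - strand: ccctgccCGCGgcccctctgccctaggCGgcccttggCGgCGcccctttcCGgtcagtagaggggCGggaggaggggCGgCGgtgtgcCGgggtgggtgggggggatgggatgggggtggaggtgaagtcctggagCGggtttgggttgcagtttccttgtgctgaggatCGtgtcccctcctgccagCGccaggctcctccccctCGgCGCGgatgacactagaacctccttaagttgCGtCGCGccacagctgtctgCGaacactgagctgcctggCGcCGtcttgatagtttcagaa
Gata5, chr2:180334630-180334929, - strand: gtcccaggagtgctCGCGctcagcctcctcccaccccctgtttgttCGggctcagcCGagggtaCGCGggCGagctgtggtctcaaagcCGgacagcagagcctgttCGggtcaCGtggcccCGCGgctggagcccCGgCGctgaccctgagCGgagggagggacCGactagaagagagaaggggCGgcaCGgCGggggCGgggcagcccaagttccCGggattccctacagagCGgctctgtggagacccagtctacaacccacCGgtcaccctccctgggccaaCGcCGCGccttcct
Gata1, chrX:7967861-7968160, - strand: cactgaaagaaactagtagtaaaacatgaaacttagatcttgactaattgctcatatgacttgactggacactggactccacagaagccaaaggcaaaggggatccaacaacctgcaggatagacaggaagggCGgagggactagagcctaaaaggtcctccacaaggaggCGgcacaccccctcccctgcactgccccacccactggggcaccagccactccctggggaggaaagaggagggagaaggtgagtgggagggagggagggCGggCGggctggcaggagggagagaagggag

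The promoters of the autosomal genes were dense in CpG. The first Gata2 promoter held 32 CpG, the second Gata2 promoter 29, the Gata5 promoter 26 and the Gata3 promoter 22, against a median of 7 over 32851 listed promoters of the same length. The Gata1 promoter held 4. At the first Gata2 promoter 90.5% of all listed promoters had fewer CpG, and at the Gata3 promoter 76.9% did. The GATA motif was searched on both strands as the letters AGATAA, with T allowed in place of the first letter and G in place of the last. It occurred once in the Gata3 promoter and in none of the other 4 sequences shown. At least 1 match was found in 29.8% of all listed promoters.

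All 300 bases of each of the 4 autosomal promoters lay under peaks in all 4 DMSO libraries of H3K27me3. Under EPZ the Gata3 and Gata5 promoters had 0 bases under peaks in each of the 4 libraries. The first Gata2 promoter had 32 bases under a peak in H3WT EPZ replicate 1 and 0 in the other 3 EPZ libraries. The second Gata2 promoter had 65 bases in K27M EPZ replicate 2 and all 300 in H3WT EPZ replicate 1. Of all listed promoters in the classes of these genes, 1.06% with 20 to 24 CpG and 1.04% each with 25 to 29 and with 30 or more were touched by a peak of any EPZ library. The share was higher in less dense classes, at 2.17% with 10 to 14 CpG and 1.49% with 15 to 19. It was 0.160% with 0 to 4 CpG and 0.543% with 5 to 9. No library had a peak over the Gata1 promoter. Among all listed promoters, peaks of all 4 DMSO libraries touched 0.920% of those with 0 to 4 CpG, the class of Gata1, and 2.35% of those with 5 to 9. In the 5 classes from 10 CpG up the share was level, at 4.57% to 5.19%.

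Across the windows of gene plus 10 kb to either side, H3K27me3 lay at all 5 genes in DMSO and at 4 of them in at least 1 EPZ library. Covered length below is the length of such a window under peaks, and it cannot exceed the window. A gene was counted as marked in a library with at least 1 bp under a peak. All 5 genes were marked in both K27M DMSO libraries, in which 7.06% of all genes were, and in both H3WT DMSO libraries, in which 21.4% were. Gata3, Gata4 and Gata6 were marked in both K27M EPZ libraries, in which 0.740% of genes were, and these 3 genes and Gata2 were marked in both H3WT EPZ libraries, in which 0.985% were. Within 1 kb of a listed start, or of a gene end where no start is listed, all 5 genes had a peak in both K27M DMSO libraries (4.27% of genes) and in both H3WT DMSO libraries (9.80% of genes). Under EPZ 2 genes, Gata4 and Gata6, had a peak in both K27M EPZ libraries (0.444% of genes). Those 2 genes and Gata2 had one in both H3WT EPZ libraries (0.730% of genes). Gata3 entered these counts by its listed start, and its high-coordinate gene end was under a peak in all 4 EPZ libraries.

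**Figure D1:**
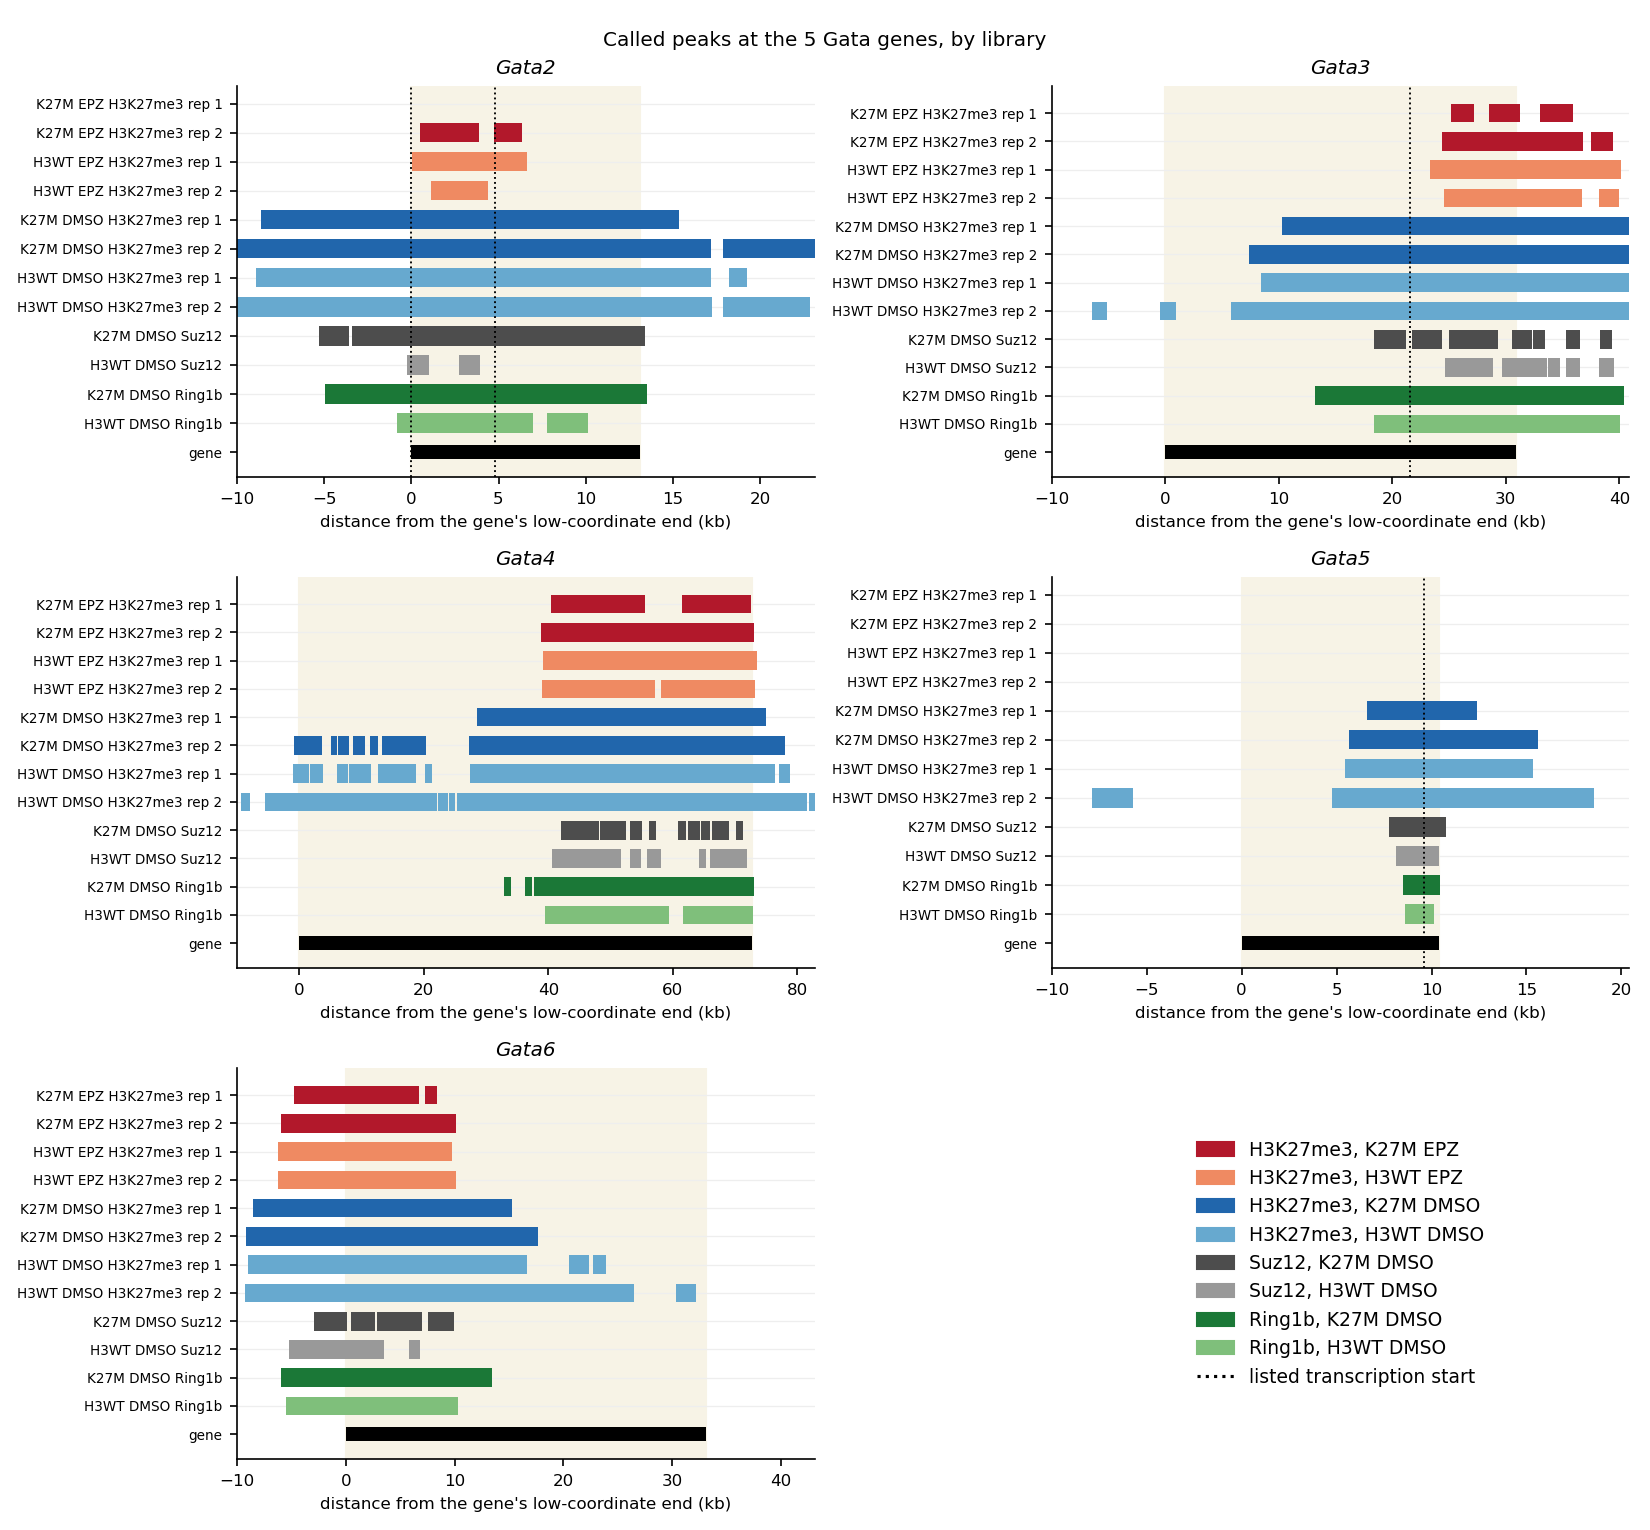
Called peaks in each library along the window of each Gata gene and 10 kb to either side. The x axis is the distance in kb from the gene's low-coordinate end, rows are libraries, and bars are peaks clipped to the window. In the 4 EPZ libraries Gata4 keeps 26.2 kb and Gata6 12.5 kb under peaks in every library, while Gata5 has none.

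Gata2, a regulator of blood stem cells, had the most complete H3K27me3 cover of its window in DMSO and little under EPZ. It had 0 and 5.01 kb under peaks in K27M EPZ replicates 1 and 2, and 6.61 and 3.303 kb in H3WT EPZ. It had 23.96 and 32.4 kb in K27M DMSO and 27.1 and 32.2 kb in H3WT DMSO, of a window of 33.1 kb. The EPZ values did not overlap the DMSO values, and the genotypes overlapped within each treatment. The mean under EPZ was 25.2 kb below that in DMSO, at 3.73 ± 2.83 kb under EPZ and 28.9 ± 4.12 kb in DMSO (SD, n = 4 each; two-sided exact permutation p = 0.0286, adjusted p = 0.187). No base was under peaks of all 4 EPZ libraries, since K27M EPZ replicate 1, the shortest list, had no peak there. In the other 3 EPZ libraries the peaks began 0.018 to 1.102 kb downstream of the first listed start and ended 4.40 to 6.63 kb downstream of it. They lay over the second listed start in K27M EPZ replicate 2 and H3WT EPZ replicate 1, and 0.369 kb upstream of it in H3WT EPZ replicate 2.

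Gata3, which directs T cell fate, had peaks in every EPZ library, upstream of its listed start and over the high-coordinate end of the gene. It had 7.70 and 14.4 kb in K27M EPZ and 16.8 and 13.97 kb in H3WT EPZ. It had 30.6 and 33.5 kb in K27M DMSO and 32.5 and 37.8 kb in H3WT DMSO. Treatments did not overlap, and genotypes did. The mean was 13.2 ± 3.88 kb under EPZ and 33.6 ± 3.03 kb in DMSO (SD, n = 4 each), a difference of -20.4 kb (exact permutation p = 0.0286, adjusted p = 0.187). The nearest EPZ peak lay 3.67 and 2.85 kb upstream of the listed start in K27M EPZ and 1.80 and 3.00 kb upstream in H3WT EPZ. In all 4 DMSO libraries a peak lay over that start. In each EPZ library a peak lay across the gene's high-coordinate end at 9887953, which on this minus-strand gene is the 5′ end of the annotated span.

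The 7.70 kb of Gata3 under peaks of all 4 EPZ libraries lay in 3 stretches between chr2:9882266 and chr2:9892995. Noncoding RNA genes overlap these stretches. Of 4930412O13Rik, at chr2:9881246-9886767, 57.2% and 96.3% lay under peaks in K27M EPZ and 100% and 93.6% in H3WT EPZ. Of 9230102O04Rik, at chr2:9883041-9889540, 61.3% and 100% did in K27M EPZ and 100% in each H3WT EPZ library. Peaks of overlapping genes cannot be told apart.

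Gata4, a heart and endoderm factor, had the longest H3K27me3 cover of the 5 genes in every library, in the longest window. It had 26.2 and 34.1 kb in K27M EPZ and 34.4 and 33.2 kb in H3WT EPZ. It had 46.4 and 68.6 kb in K27M DMSO and 68.0 and 88.8 kb in H3WT DMSO, of a window of 92.8 kb. The EPZ values lay close together and below all DMSO values, which spread more widely within each genotype. The genotypes overlapped in both treatments. The mean was 32.0 ± 3.87 kb under EPZ and 67.9 ± 17.3 kb in DMSO (SD, n = 4 each), a difference of -36.0 kb (exact permutation p = 0.0286, adjusted p = 0.187). A single block of 46.4 kb carried the whole of the K27M DMSO replicate 1 signal, and the widest peaks of the other DMSO libraries were 50.7 kb in K27M and 49.0 and 56.2 kb in H3WT. The peaks shared by all 4 EPZ libraries covered 26.2 kb in 2 stretches between chr14:63239291 and chr14:63271523, in the high-coordinate part of the gene. Neil2, a DNA repair gene at the other end of the window, had 0% of its length under H3K27me3 peaks in 7 of the 8 libraries and 19.3% in H3WT DMSO replicate 2.

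Gata5, a heart and endoderm factor like Gata4, had the least H3K27me3 of the 5 genes. It had 0 kb in both K27M EPZ and both H3WT EPZ libraries. It had 5.77 and 9.93 kb in K27M DMSO and 9.91 and 16.0 kb in H3WT DMSO. No peak was called under EPZ, and every DMSO library had one over the listed start. In DMSO the genotypes overlapped. The mean was 0 kb under EPZ and 10.4 ± 4.23 kb in DMSO (SD, n = 4 each), a difference of -10.4 kb (exact permutation p = 0.0286, adjusted p = 0.187). The noncoding RNA gene Gata5os, which overlaps Gata5, had 0% of its length under peaks in every EPZ library, against 58.5% and 99.3% in K27M DMSO and 96.3% and 100% in H3WT DMSO.

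Gata6 acts in endoderm and heart and lies at chr18:11052510-11085636. Among the 4 genes with EPZ peaks it had the smallest SD in kb over the EPZ libraries. It had 12.5 and 16.1 kb in K27M EPZ and 16.0 and 16.3 kb in H3WT EPZ. It had 23.8 and 26.9 kb in K27M DMSO and 28.8 and 37.5 kb in H3WT DMSO. Treatments did not overlap, and in DMSO both K27M values lay below both H3WT values. The mean was 15.2 ± 1.85 kb under EPZ and 29.2 ± 5.89 kb in DMSO (SD, n = 4 each), a difference of -14.0 kb (exact permutation p = 0.0286, adjusted p = 0.187). The 12.5 kb under peaks of all 4 EPZ libraries lay in 2 stretches between chr18:11047774 and chr18:11060863, over the low-coordinate end of the gene. The noncoding RNA gene Gata6os lies across that end, and 45.5% and 57.3% of it was covered in K27M EPZ and 60.03% and 59.5% in H3WT EPZ. In DMSO 81.5% and 87.6% of Gata6os was covered in K27M and 86.3% and 88.6% in H3WT.

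**Figure D2:**
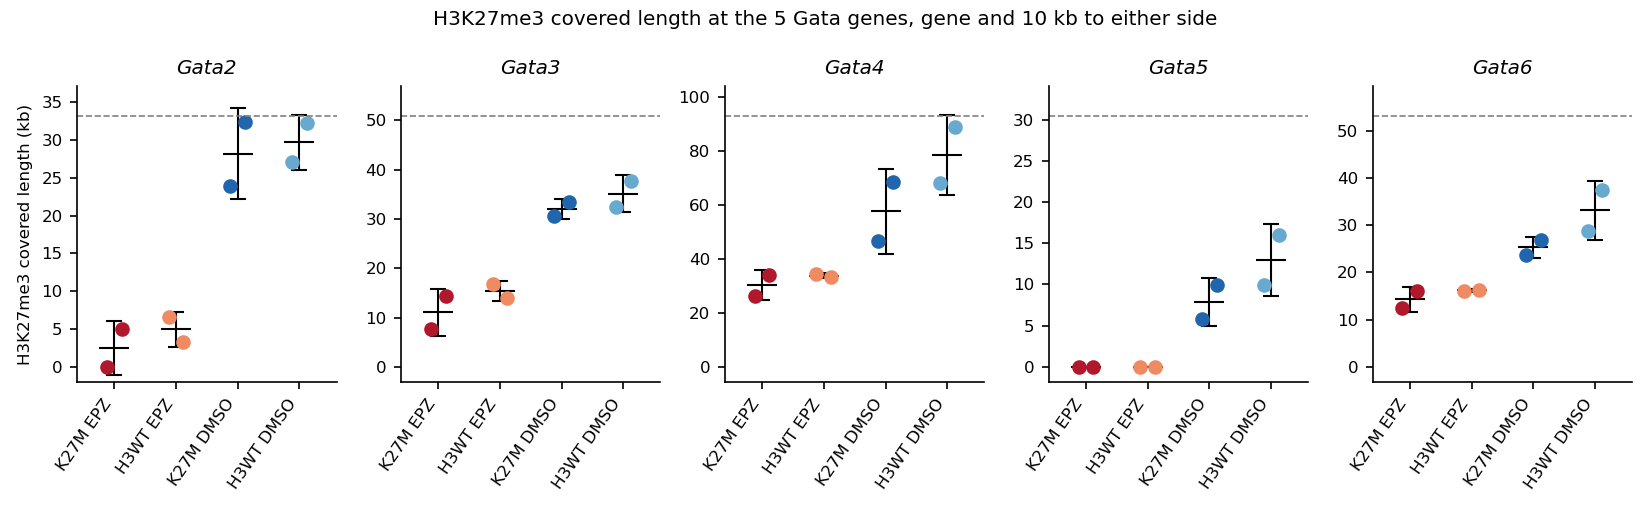
H3K27me3 covered length in kb at each Gata gene and 10 kb to either side, by group. Points are libraries, horizontal bars with whiskers are the mean and SD (n = 2), and the dashed line is the window length, which a value cannot exceed. At all 5 genes the EPZ points lie below the DMSO points, as at 98.4% of genes with a peak in all 4 DMSO libraries.

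Read over all 5 genes, every EPZ library was below every DMSO library at 5 of 5. The same held at 1491 genes, which is 15.3% of the 9749 that had a peak in at least 1 H3K27me3 library, and the opposite held at 0.00% of them. The pattern needs a peak in all 4 DMSO libraries, and of the 1515 genes with one 98.4% showed it. The 5 Gata genes thus did as nearly every gene marked in DMSO did. The median difference over those 9749 genes was -2.03 kb. The exact permutation p of 0.0286 is the smallest that 4 libraries against 4 can give. It came from relabelling treatment over both genotypes together, so the 4 libraries of a treatment were not 4 replicates of 1 genotype. Within K27M or within H3WT alone, with 2 libraries against 2, the exact permutation p was 0.333 at each of the 5 genes. That is the smallest such a test allows. After Benjamini-Hochberg adjustment over the 9749 genes, 0 genes passed 0.05, while 1491 had an unadjusted p under 0.05, all of them lower under EPZ and with the same adjusted p of 0.187. As ppm of each list's total length the direction turned for Gata2, Gata3, Gata4 and Gata6, whose part of the short EPZ lists was larger than their part of the DMSO lists, by 955 ppm at Gata2, 6080 ppm at Gata3, 16240 ppm at Gata4 and 7758 ppm at Gata6.

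The share of the DMSO length still called under EPZ was largest at Gata6, Gata4 and Gata3, smaller at Gata2 and 0 at Gata5. Over both genotypes it was 52.1% at Gata6, 47.1% at Gata4, 39.3% at Gata3, 12.9% at Gata2 and 0% at Gata5. By genotype it was 56.4% in K27M and 48.8% in H3WT for Gata6. It was 52.4% in K27M and 43.1% in H3WT for Gata4, and 34.4% in K27M and 43.8% in H3WT for Gata3. At Gata2 it was 8.89% in K27M and 16.7% in H3WT. The ratios of same-numbered replicates overlapped between Gata6, at 43.5% to 59.9%, Gata4, at 37.4% to 56.5%, and Gata3, at 25.2% to 51.7%. Those of Gata2, at 0 to 24.4%, lay below them under this pairing. The labels do not say whether replicate numbers pair EPZ with DMSO libraries, and other pairings were not computed.

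Of the 1515 genes with a peak in all 4 DMSO libraries, 1239, or 81.8%, had no EPZ peak, as Gata5 did. A share of at least 25% was seen at 8.98% of those genes, and at Gata3, Gata4 and Gata6. The number of genes with a higher share was 66 for Gata6, 78 for Gata4, 92 for Gata3 and 181 for Gata2.

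**Figure D3:**
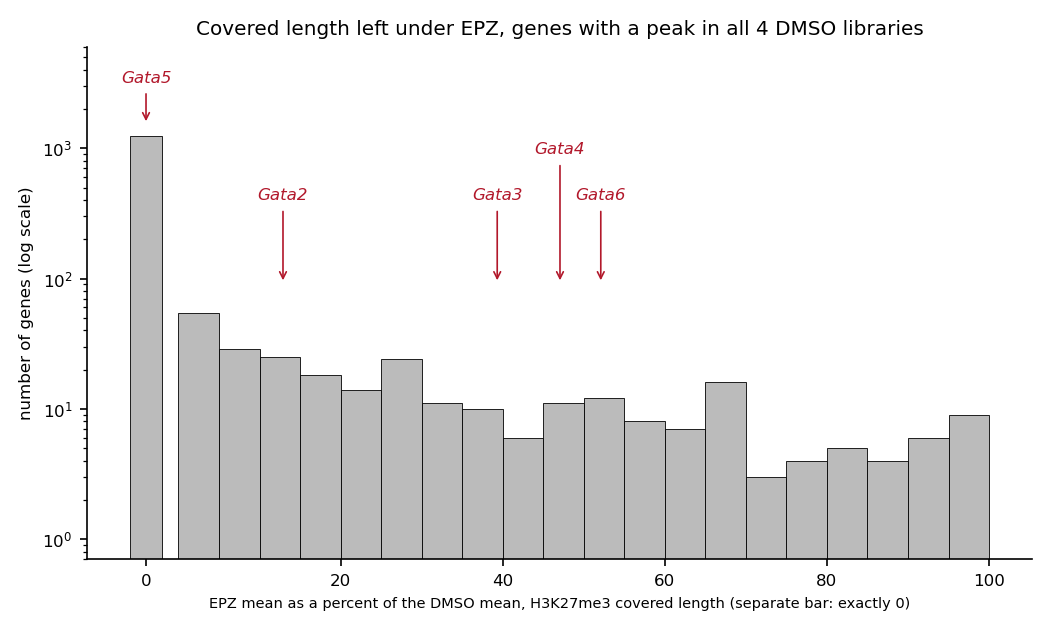
Number of genes, on a log axis, by the percent of their mean DMSO covered length that remained under EPZ, for the 1515 genes with a peak in all 4 DMSO libraries. Arrows mark the 5 Gata genes. Gata5 sits among the 1239 genes at 0, and Gata6 at 52.1%.

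Set per length, the order of the genes differed between treatments. Under EPZ the percent of the window covered had the order Gata4, Gata6, Gata3, Gata2 and Gata5 in both genotypes. It was 32.5 ± 5.99% in K27M EPZ and 36.4 ± 0.885% in H3WT EPZ for Gata4 (SD, n = 2 each). In DMSO Gata2 stood first, at 85.1 ± 18.04% in K27M and 89.5 ± 10.9% in H3WT (SD, n = 2 each), and Gata5 last, at 25.8 ± 9.68% in K27M and 42.6 ± 14.2% in H3WT. Neighbours in these orders often overlapped. In K27M EPZ the ranges of Gata4 and Gata6, and of Gata6 and Gata3, overlapped, Gata2 and Gata5 shared a value of 0, and Gata3 and Gata2 stood apart by less than 1 percentage point. In H3WT EPZ the ranges of Gata6 and Gata3 overlapped and the other neighbours stood apart. In K27M DMSO Gata3 overlapped Gata4 and Gata4 overlapped Gata6, while Gata2 and Gata3, and Gata6 and Gata5, stood apart. In H3WT DMSO all neighbours overlapped except Gata6 and Gata5.

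The EPZ peaks at the genes lay inside DMSO domains. In each EPZ library with a peak at Gata2, Gata3, Gata4 or Gata6, 100% of the EPZ bases in the window lay under peaks of both DMSO libraries of the same genotype. Of the bases under peaks of any EPZ library, the part shared by all 4 was 76.0% at Gata6, 75.8% at Gata4 and 45.9% at Gata3.

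Between genotypes, the 5 genes had shorter mean H3K27me3 cover in K27M than in H3WT in DMSO, by amounts within or near the replicate spread. The difference of K27M minus H3WT was -1.47 kb at Gata2 (exact permutation p = 1) and -3.06 kb at Gata3 (exact permutation p = 0.667). It was -20.9 kb at Gata4 and -5.12 kb at Gata5 (exact permutation p = 0.667 each). Gata6 had 25.3 ± 2.18 kb in K27M DMSO and 33.1 ± 6.20 kb in H3WT DMSO (SD, n = 2 each), a difference of -7.81 kb. In the window with 10 kb to either side it was the only one of the 5 whose libraries did not overlap. That pattern was seen at 24.8% of the 9749 genes, which is 52.2% of those with a peak in both H3WT DMSO libraries, and the reverse at 0.287%. The median difference over those genes was -2.47 kb. At Gata6 the exact permutation p was 0.333, the smallest that 2 libraries against 2 allow. Which genes reached it depended on the setting. Over the gene alone and with 5 kb, the exact permutation p was 0.333 at both Gata5 and Gata6. With 50 kb it was 0.333 at Gata4 and Gata5 and 0.667 at Gata6. With peaks of at least 3 kb it was 0.667 at Gata6. As ppm of the list's length, all 5 differences had the opposite sign. Under EPZ none of the 5 genes had both K27M values below both H3WT values, a pattern seen at 1.36% of the 9749 genes and at 62.4% of the 213 with a peak in both H3WT EPZ libraries.

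Neither the genotype difference over both treatments nor the difference between the genotypes' EPZ effects passed at any of the 5 genes. Over both treatments, K27M minus H3WT was -1.96 kb at Gata2, -3.70 kb at Gata3, -12.3 kb at Gata4, -2.56 kb at Gata5 and -4.85 kb at Gata6, with exact permutation p between 0.111 and 0.667. The EPZ effect in K27M minus that in H3WT was -0.981 kb at Gata2, -1.29 kb at Gata3, 17.2 kb at Gata4, 5.12 kb at Gata5 and 5.91 kb at Gata6, with exact permutation p between 0.444 and 0.833. Over the 9749 genes the median was -1.26 kb for the first quantity and 2.47 kb for the second. The smallest p these tests allow is 0.0556, and all adjusted p were 1. Without K27M DMSO replicate 1 the difference over both treatments was 0.154 kb at Gata2. Leaving out 1 library at a time moved the difference between the EPZ effects over -5.21 to 3.25 kb at Gata2 and -4.62 to 2.04 kb at Gata3.

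Suz12, the PRC2 subunit, had peaks at all 5 genes in both genotypes, as had 4.04% of all genes in the K27M library and 2.30% in the H3WT library. With 1 library per genotype no test was possible. At Gata2 the Suz12 peaks covered 18.6 kb in K27M and 2.45 kb in H3WT, a ratio of 7.59. The H3WT value was made up of 2 peaks of 1.25 and 1.195 kb, near the shortest width in the lists, 1001 bp. Of the 383 genes with Suz12 peaks in both libraries, 8 had a higher ratio, and the median was 1.38. The K27M library had more at 74.4% of them. The whole K27M list was 1.94 times as long as the H3WT list. At Gata3 the peaks covered 14.8 kb in K27M and 11.8 kb in H3WT, at Gata4 21.7 kb in K27M and 22.1 kb in H3WT, and at Gata6 11.7 kb in K27M and 9.71 kb in H3WT. At Gata5 they covered 2.98 kb in K27M and 2.30 kb in H3WT, all of it in 1 peak over the listed start. The ratio of the other 4 genes thus lay between 0.979 and 1.29.

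Ring1b, of PRC1, also had peaks at all 5 genes in both genotypes, against 8.02% of all genes in K27M and 6.99% in H3WT. It covered 18.5 kb in K27M and 10.1 kb in H3WT at Gata2, a ratio of 1.82. At Gata3 it covered 27.2 kb in K27M and 21.7 kb in H3WT, and at Gata4 37.6 kb in K27M and 31.0 kb in H3WT. At Gata6 it covered 19.4 kb in K27M and 15.9 kb in H3WT, and at Gata5 1.98 kb in K27M and 1.56 kb in H3WT. All 5 genes had more in the K27M library, as had 73.1% of the 1173 genes with Ring1b peaks in both. The ratios of the 5 genes were 1.21 to 1.82, the median of those 1173 genes was 1.13, and that of the whole lists was 1.46. At the promoters printed above, Ring1b peaks covered all 300 bases of each of the 4 autosomal ones in both genotypes. Suz12 peaks covered all 300 bases of the Gata5 promoter in both genotypes. The second Gata2 promoter had 300 bases under Suz12 in K27M and 0 in H3WT, and the first had 300 in K27M and 290.0 in H3WT. The Gata3 promoter had 62 bases under Suz12 in K27M and 0 in H3WT, where the nearest Suz12 peak lay 3.13 kb upstream of the listed start.

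Ring1b cover was longer than Suz12 cover at Gata3, Gata4 and Gata6 in both genotypes, and shorter at Gata5 in both. At Gata2 it was 18.48 kb against 18.56 kb of Suz12 in K27M, and longer than Suz12 in H3WT. The whole Ring1b lists were longer too, at 7.54 Mb in K27M and 5.17 Mb in H3WT, against 3.96 Mb and 2.05 Mb for Suz12.

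The H3K27me3 bases that were called under EPZ were largely those under Ring1b peaks of DMSO-treated cells. Of the bases under any EPZ peak, the K27M Ring1b peaks covered 100% at Gata2, 100% at Gata3, 98.7% at Gata4 and 98.1% at Gata6, and 83.1% over the whole list. The H3WT Ring1b peaks covered 100%, 99.7%, 89.7% and 95.5% at those genes and 73.4% over the whole list. Of the bases under any DMSO peak, the K27M Ring1b peaks covered 56.9% at Gata2, 72.1% at Gata3, 42.3% at Gata4, 12.4% at Gata5 and 51.6% at Gata6, and 2.93% over the whole list. The H3WT Ring1b peaks covered 31.2% at Gata2, 57.4% at Gata3, 35.0% at Gata4, 9.74% at Gata5 and 42.3% at Gata6, and 1.95% over the whole list.

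Suz12 peaks covered less of the EPZ bases at Gata3, Gata4 and Gata6. The bases are again those under any EPZ peak of either genotype. The K27M Suz12 peaks covered 62.0% at Gata3, 62.7% at Gata4 and 71.4% at Gata6, and 56.0% over the whole list. The H3WT Suz12 peaks covered 70.3% at Gata3, 64.0% at Gata4 and 59.2% at Gata6, and 53.6% over the whole list. At Gata2 the K27M Suz12 peaks covered 100% and the H3WT Suz12 peaks 33.1%. Of the stretches under peaks of all 4 EPZ libraries, K27M Ring1b peaks covered 100% at Gata3, Gata4 and Gata6, and H3WT Ring1b peaks 100% at Gata3 and Gata6 and 98.96% at Gata4. Gata5 had Suz12 and Ring1b peaks over its start in both genotypes and no EPZ base to compare.

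**Figure D4:**
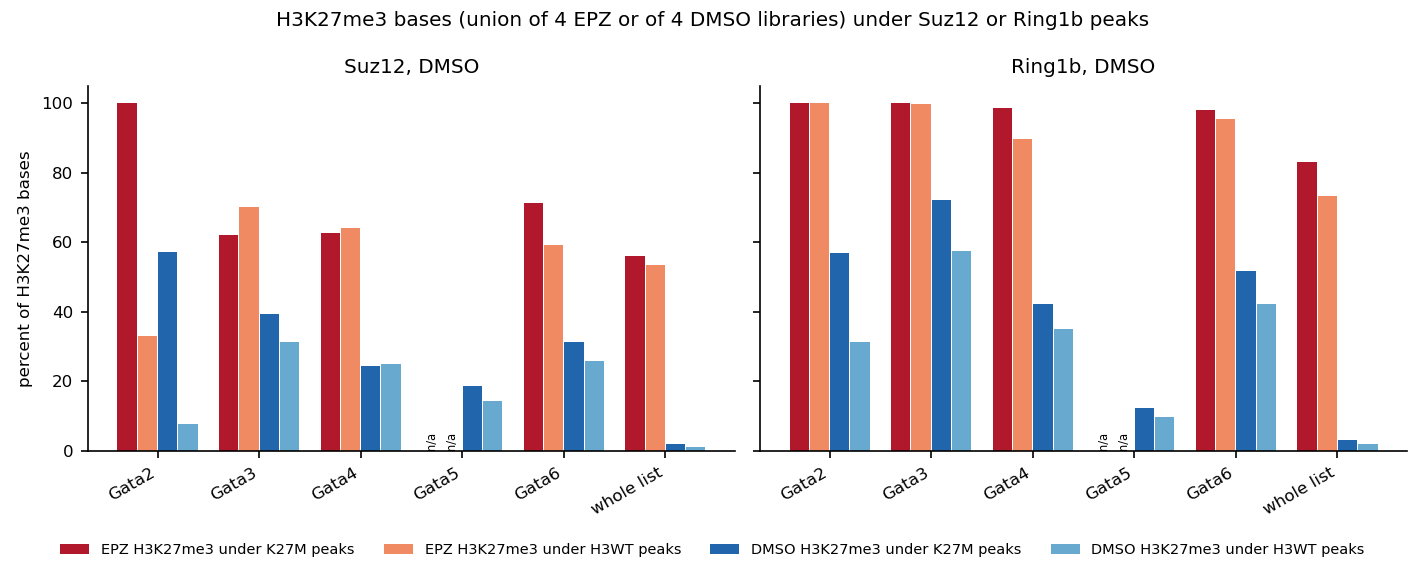
Percent of the H3K27me3 bases at each Gata gene, and over the whole list, that lay under Suz12 (left) or Ring1b (right) peaks of each genotype in DMSO. The H3K27me3 bases are those under a peak of any EPZ library, or of any DMSO library, with both genotypes pooled. Each bar sets them against a single Suz12 or Ring1b library. Colours separate the EPZ and DMSO bases and the genotype of the factor's library, and n/a marks Gata5, which has no EPZ base. EPZ bars exceed DMSO bars of the same factor library at Gata2, Gata3, Gata4 and Gata6.

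Genes that work with the Gata factors were taken in lists. Of 23 heart, gonad and endoderm genes, 12 were marked in all 4 EPZ libraries, as were 0.703% of all genes. Of 16 with a peak in all 4 DMSO libraries, 15 had every EPZ value below every DMSO value, near the 98.4% of all such genes. The median difference over the 21 with any H3K27me3 peak was -10.5 kb, against -2.03 kb over all genes tested. These 2 sets differ in DMSO. A peak in all 4 DMSO libraries was present at 16 of the 21 genes and at 1515 of the 9749 tested. The part of this in the difference was not tested. Hand2, a heart and limb factor, had 20.2 and 23.5 kb in K27M EPZ and 23.5 kb in each of the other 6 H3K27me3 libraries, which is its whole window. Isl1, a factor of heart progenitors and motor neurons, had 13.9 to 22.7 kb under EPZ and 29.2 to 30.6 kb in DMSO (n = 4 each). Cdx2, a factor of the intestine, had 11.003 to 18.1 kb under EPZ and 23.9 to 26.35 kb in DMSO (n = 4 each). Wt1, a factor of kidney and gonad, had 11.8 to 17.5 kb under EPZ and 28.6 to 50.7 kb in DMSO (n = 4 each).

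Of 16 GATA cofactors and blood partners, 0 were marked in all 4 EPZ libraries, a count near the 0.703% of all genes. In DMSO 6 were marked in both K27M libraries, against 7.06% of all genes, and 9 in both H3WT libraries, against 21.4%. The 6 with a peak in all 4 DMSO libraries had every EPZ value below every DMSO value, as had 98.4% of all such genes. The median difference over the 12 with any H3K27me3 peak was -7.55 kb. Gfi1, a repressor in blood cells, had 0 and 2.62 kb in K27M EPZ and 7.04 and 5.97 kb in H3WT EPZ, against 28.1 and 29.2 kb in K27M DMSO and 28.4 and 29.2 kb in H3WT DMSO. Cbfa2t3, a corepressor, had 0 to 1.075 kb under EPZ and 24.5 to 83.95 kb in DMSO (n = 4 each). The blood factors Fli1 and Tal1 had 0 kb in every EPZ library, against 23.9 to 64.5 kb at Fli1 and 19.2 to 26.8 kb at Tal1 in DMSO. No gene of either list passed the adjusted threshold.

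Of 6 other genes with GATA-type zinc fingers, 0 had H3K27me3 peaks in both libraries of any group. With 6 genes this is near the shares of all genes, which were 7.06% in K27M DMSO and 21.4% in H3WT DMSO. Gata1 had 2.48 kb, Zglp1 2.06 kb and Gatad1 1.15 kb in H3WT DMSO replicate 2, the longest list, and 0 kb in the other 7 H3K27me3 libraries. Gatad2a had 0 kb in all 8.

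The genes whose cover was most like that of each Gata gene over the 12 libraries were found by the mean absolute difference in percent of the window, leaving out genes within 100 kb. For Gata2 they were Bhlhe22, at 6.43 percentage points, and Barx1, at 6.91. For Gata3 they were Foxl1, at 7.21, and Atoh1, at 7.26. Six2, at 5.36, and Sox17, at 5.58, were nearest to Gata4. Nearest to Gata5 were Tgfb1, at 1.45, and Phlda2, at 2.12. Wt1, at 4.18, and Atoh1, at 4.86, were nearest to Gata6.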

How the data were processed

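Peak lists of 12 of the 14 samples were used, and the 2 IgG samples were not analysed here. The submitters' processing notes name Bowtie 1.1.2 and the build mm10. Which caller made the peaks, and at what threshold, is not given in the sources used here. The deposited lists hold chromosome, start and end of each peak, 1 list per library, and the deposited score was 0 in all 100144 lines, so no height was used. The 21 lines that touched a neighbour were joined to it. A longer list can come from deeper sequencing or higher enrichment, so lengths describe called regions, and no counting interval was possible.

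Gene positions and promoters came from NCBI RefSeq (GRCm38.p6). The promoter table gave a start and strand for 17274 of 21631 genes. Both gene ends stood in for the start of the others, Gata4 and Gata6 among them. Covered length over the gene and 10 kb to either side was computed in Python 3.11.15 with numpy 2.4.6, after the code was tested on simulated data. Mean differences were tested with two-sided exact permutation tests over libraries, genotype being relabelled within treatment where both treatments entered. For EPZ minus DMSO, treatment was relabelled over both genotypes together. P-values were Benjamini-Hochberg adjusted over 9749 genes. Groups came from titles and descriptions. Alternatives were windows of 0, 5 and 50 kb, peaks of at least 3 kb, marking at 1 kb or 10% of the window, shares of list length, log2(kb + 0.1), the replicate number as a block, and leaving out each library. The members, lists and tests were chosen with earlier results of these data known. Named were the 5 Gata genes, the 2 most like genes of each, genes within 10 kb, and up to 4 genes per list by mean EPZ and then DMSO length.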

Additional observations from a re-analysis of the deposited data

How the results depend on the processing

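Of 356 alternative values, 31 changed sign and 8 without a test were called moved. Of these 8, 2 were counts of marked genes that changed by more than a set factor. The rest were summed Suz12 or Ring1b lengths, for which any change counted, however small. The other 317 values neither changed sign nor moved, though those with a test may differ in size. K27M minus H3WT in DMSO at Gata2, for example, was 0 kb over the gene alone and -21.1 kb with 50 kb. In every setting 0 genes passed the adjusted threshold. In kb, EPZ minus DMSO was negative at the 5 genes under each setting, and its size followed the window. Over windows of 0, 5 and 50 kb it was -9.41 to -49.4 at Gata2, -17.0 to -27.2 at Gata3, -28.4 to -48.6 at Gata4, -4.80 to -24.9 at Gata5 and -10.8 to -16.5 at Gata6. Leaving out 1 library it was -26.8 to -23.9 kb at Gata2, -21.6 to -18.5 at Gata3, -43.1 to -29.0 at Gata4, -12.0 to -8.54 at Gata5 and -15.8 to -11.2 at Gata6. As ppm of the list's length it was 955 at Gata2 (exact permutation p = 0.286), and 6080, 16240 and 7758 at Gata3, Gata4 and Gata6 (exact permutation p = 0.0286 each). K27M minus H3WT in DMSO was 753, 934, 1265, 139.6 and 673 ppm at Gata2 to Gata6. Over both treatments it was 388, 2814, 69.8 and 1326 ppm at Gata3 to Gata6. By construction the sign can turn where the lists differ in total length.

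Without 1 library, K27M minus H3WT in DMSO was -5.70 to 2.76 kb at Gata2, -5.71 to -0.401 at Gata3, -31.9 to -9.83 at Gata4, -8.18 to -2.06 at Gata5 and -12.2 to -3.42 at Gata6. Gata2 was positive without K27M replicate 1 or H3WT replicate 2. Over both treatments the ranges were -4.07 to 0.154, -5.37 to -2.04, -17.8 to -6.74, -4.09 to -1.03 and -7.04 to -2.66 kb. The EPZ effect in K27M minus that in H3WT was -5.21 to 3.25 at Gata2, -4.62 to 2.04 at Gata3, 6.18 to 28.3 at Gata4, 2.06 to 8.18 at Gata5 and 1.52 to 10.3 kb at Gata6. Both Gata2 and Gata3 were positive without K27M EPZ replicate 1, H3WT EPZ replicate 1, K27M DMSO replicate 2 or H3WT DMSO replicate 1. It was 0.036, 0.656 and 1.44 kb at Gata3 with windows of 5, 0 and 50 kb, 18.6 kb at Gata2 with 50 kb, and -139.6 ppm at Gata5. The causes were not tested.

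Suz12 marked 3 of 5 genes in H3WT at a minimum of 10% of the window, and 3 with peaks of at least 3 kb. Summed over the 5 genes, Suz12 was 21.4 kb longer in K27M, and 21.5 (5 kb), 19.8 (0 kb), 4.39 (peaks of at least 3 kb) and -6059 ppm under alternatives. Ring1b was 24.3 kb longer, and 23.5, 18.8, 25.1 and -1649 ppm in the same order. The labels do not say whether replicate numbers 1 and 2 pair the samples. Replicate 1 minus replicate 2 correlated at 0.829 over genes between K27M and H3WT in DMSO and at -0.400 under EPZ. Between EPZ and DMSO it correlated at 0.0252 in K27M and 0.00237 in H3WT. With the replicate block, EPZ minus DMSO at Gata4 was -36.0 kb (exact permutation p = 0.125, the smallest possible), and 0 genes passed. With the numbers crossed, added after seeing the data for the 2 contrasts that compare genotypes over both treatments, 0 genes passed either. Depth is unknown, so a gene without a peak may carry the mark below the caller's threshold.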
